A study of Mus musculus with 8 samples.

Results

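The genes described are 10 genes of the dermal extracellular matrix and its fibroblasts, 10 of 54838 genes in each count table. They were chosen by name. Col1a1, Col1a2, Col3a1 and Col5a1 encode chains of the fibrillar collagens, Col6a1 a chain of the microfibrillar collagen VI, and Dcn and Lum the small leucine-rich proteoglycans decorin and lumican. Fbn1 encodes fibrillin-1, Sparc the collagen-binding matricellular protein osteonectin, and Pdgfra the receptor for platelet-derived growth factor that marks fibroblasts. All 10 were found by identifier in every library and all 10 had enough counts to be tested.

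RNA came from the epidermis of mouse skin, isolated with trypsin, a step that parts the epidermis from the dermis below it. The libraries were labelled Ovol1/2 iDKO at 25 DPI, control at 25 DPI, Ovol1/2 iDKO at 52 DPI and control at 52 DPI, with 2 biological replicates each and 8 libraries in all. The labels do not spell out iDKO or DPI, and no promoter, inducing agent, strain or age of the mice is given in the sources used here. Whether each replicate is 1 animal or a pool is likewise not given, so p-values measure the spread between these samples.

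Fibroblasts of the dermis secrete collagen I and III as procollagens, which are trimmed and assembled into fibrils. Collagen V nucleates these fibrils, while decorin and lumican bind their surface and set their width. Fibrillin-1 builds microfibrils that carry elastin, and collagen VI forms a fine network next to basement membranes. Sparc is also made outside fibroblasts, and keratinocytes make matrix of their own, mainly the laminins and collagens of the basement membrane.

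The libraries held 9824307 to 50711381 counts. Ovol1 did not check the labels, since it had 148.1 and 204.0 CPM (counts scaled to the size of the library) in the libraries labelled iDKO and 134.9 and 36.3 CPM in those labelled control at 25 DPI, for replicates 1 and 2. At 52 DPI the values were 99.0 and 193.5 CPM in iDKO-labelled libraries and 62.7 and 157.2 CPM in control-labelled ones. Ovol2 was likewise higher in the iDKO-labelled library of all 4 pairs, so each direction below is that of the labels. The share of strand-assigned counts on the second strand was 95.4% to 95.7% in replicate 2 libraries and 49.8% to 49.97% in replicate 1 libraries. Transcripts of the Y-linked gene Ddx3y were present in all 4 libraries of 25 DPI and at 0 counts in all 4 of 52 DPI, so sex and time cannot be told apart. The library labelled control at 25 DPI, replicate 1, stood apart in several cell type markers given below. In the replicate 2 library labelled iDKO at 52 DPI, Krt14, a keratin of basal keratinocytes, had 6661 CPM, against 9884 to 21605 CPM in the other 7 libraries.

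Per kilobase of exon, 2 of the genes stood above the other 8. Sparc had a median of 38.0 CPM per kilobase over the 8 libraries, with a range of 11.2 to 52.8, and Col6a1 a median of 15.6, with a range of 5.97 to 35.4. Col1a2 followed at a median of 0.908, Col5a1 at 0.493, Col1a1 at 0.398 and Dcn at 0.316 CPM per kilobase. Col3a1 stood at 0.186, Lum at 0.0929, Pdgfra at 0.0750 and Fbn1 at 0.0237. The ranges over libraries of Sparc and Col6a1 overlapped, and so did those of each further pair of neighbours from Col1a2 on, so the order within these runs is not separated by the spread. Col6a1 and Col1a2, which reached 4.08, did not overlap, but single libraries of Dcn and Col1a1 reached 14.5 and 8.45 CPM per kilobase. Keratins of the epidermis were far more abundant, as the summed CPM of 10 keratinocyte genes was 33527 to 58273 in iDKO-labelled libraries and 45717 to 52998 in control-labelled ones.

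The genes differed in how much they varied between libraries. The highest CPM was 148-fold the lowest for Dcn, 109-fold for Fbn1, 77.1-fold for Col1a1 and 70.6-fold for Col3a1. It was 18.0-fold for Col1a2, 14.2-fold for Pdgfra, 5.92-fold for Col6a1, 4.72-fold for Sparc and 2.75-fold for Col5a1. Col1a1, Col3a1 and Dcn, which typify dermal fibroblasts, thus varied by more than the abundant pair did, while Col5a1, also a fibrillar collagen, varied by less. The lowest counts of those 3 in any library were 11, 6 and 5, against 284 for Col6a1 and 648 for Sparc. The part of counting error in these ranges was not tested.

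**Figure D1:**
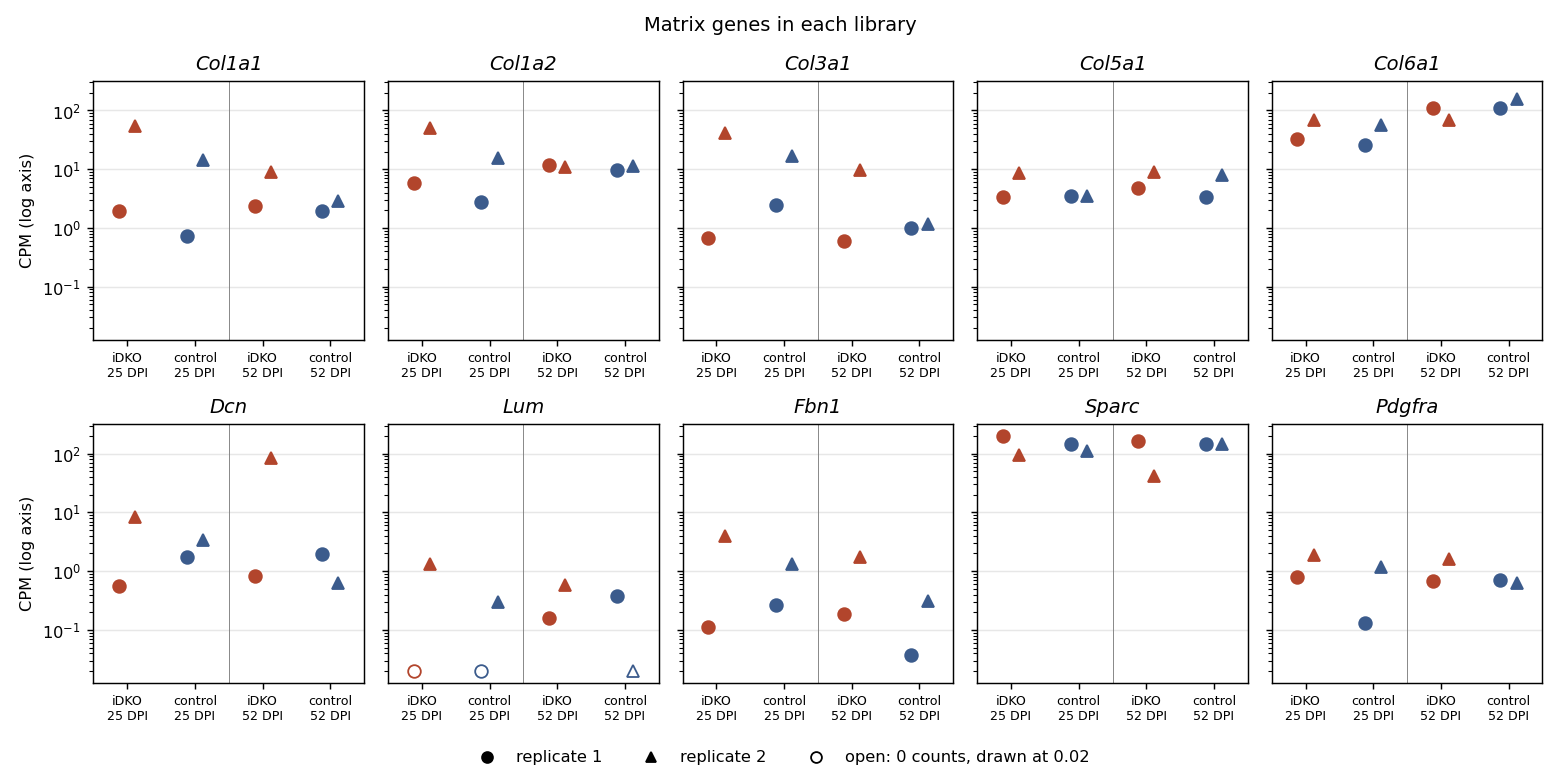
Level of each of the 10 genes in every library, in CPM on a log axis shared by all panels; red marks iDKO, blue control, circles replicate 1, triangles replicate 2, and open symbols 0 counts. Replicate 2 lies above replicate 1 in all 4 groups for Col1a1, Col3a1 and Fbn1, while Sparc and Col6a1 lie between 26.1 and 200.2 CPM throughout.

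Among the fibrillar collagens, Col1a1, the alpha 1 chain of collagen I (GRCm38 chr11:94936224-94953042, plus strand), was higher in the iDKO-labelled library of every pair. At 25 DPI it had 1.94 and 55.4 CPM in the iDKO libraries of replicates 1 and 2, against 0.719 and 14.5 CPM in the controls. At 52 DPI it had 2.32 and 9.09 CPM in iDKO, against 1.96 and 2.90 CPM in control. The pairs were on one side, yet the groups overlapped at both times, because the replicate 1 iDKO library lay below the replicate 2 control. Of all 17839 genes tested, 6.73% were likewise higher in the iDKO-labelled library of all 4 pairs. The replicate 1 libraries of 25 DPI rested on 17 counts in iDKO and 11 in control.

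Col1a2, the alpha 2 chain of collagen I (chr6:4504814-4541544, plus strand), was higher in both iDKO-labelled libraries of 25 DPI than in the controls of their pairs. It had 5.82 and 50.7 CPM in the iDKO-labelled libraries of 25 DPI, against 2.81 and 15.6 CPM in the controls. The ratio of iDKO to control was 2.07 in the replicate 1 pair and 3.25 in the replicate 2 pair. Its values at 52 DPI were 12.03 and 11.1 CPM in iDKO, against 9.82 and 11.5 CPM in control, so the groups overlapped and lay close together. Collagen I is built from both chains, but the ratio of Col1a1 to Col1a2 counts was not constant. It was 0.333 and 1.09 in iDKO and 0.256 and 0.930 in control at 25 DPI, and 0.193 and 0.822 in iDKO and 0.200 and 0.252 in control at 52 DPI. The ratio was thus 0.822 to 1.09 in 3 libraries, all of replicate 2, and at most 0.333 in the other 5.

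Col3a1, the chain of collagen III (chr1:45311538-45349706, plus strand), went in opposite directions in the pairs of each time. It had 0.684 and 42.1 CPM in the iDKO-labelled libraries of 25 DPI, against 2.48 and 17.0 CPM in control. Those of 52 DPI had 0.597 and 9.81 CPM in iDKO, against 1.00 and 1.18 CPM in control. The iDKO library was thus lower in both replicate 1 pairs and higher in both replicate 2 pairs. Col5a1, a chain of collagen V (chr2:27886425-28039514, plus strand), varied least of the 10. Its values were 3.31 and 8.60 CPM in iDKO and 3.53 and 3.43 CPM in control at 25 DPI, and 4.84 and 9.09 CPM in iDKO and 3.34 and 7.84 CPM in control at 52 DPI.

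The upstream sequence of 7 of the 10 genes was at hand, from RefSeq on GRCm38.p6. Of these, those of Col1a2, the collagen gene that a genotype test called, and Col3a1, one of the genes whose pairs went in opposite directions, are printed as the 250 bases before the RefSeq start. They lie at chr6:4505368-4505617 and chr1:45311288-45311537, both on the plus strand, with the motif found in capitals.
Col1a2: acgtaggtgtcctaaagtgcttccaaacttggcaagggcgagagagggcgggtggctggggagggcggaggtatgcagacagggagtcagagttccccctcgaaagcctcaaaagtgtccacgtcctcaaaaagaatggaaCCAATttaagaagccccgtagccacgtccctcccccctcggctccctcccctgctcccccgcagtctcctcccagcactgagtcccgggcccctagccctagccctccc
Col3a1: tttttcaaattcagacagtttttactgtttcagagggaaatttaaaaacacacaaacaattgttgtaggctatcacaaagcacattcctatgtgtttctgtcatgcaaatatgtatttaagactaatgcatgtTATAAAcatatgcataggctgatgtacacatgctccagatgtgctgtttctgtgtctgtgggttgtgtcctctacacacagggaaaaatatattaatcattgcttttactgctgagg
The motifs searched on both strands were CCAAT, the box bound by the factor NF-Y; TATAAA, the TATA box; CAGGTG, an E-box bound by factors such as Zeb1; and CCGTTA, a core of OVOL sites. CCAAT stood at position -109 from the start of Col1a2 and in 1 of the 7 windows, and in 33.8% of 32851 windows of the same length. TATAAA stood at position -117 of Col3a1 and in 12.4% of all windows. CAGGTG and CCGTTA were in 0 of the 7, against 17.2% and 2.18% of all windows. These matches describe the letters alone.

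Col6a1, a chain of collagen VI (chr10:76708792-76726168, minus strand), was the collagen with the highest level among the 10 genes. It had 32.4 and 69.3 CPM in iDKO and 26.1 and 56.8 CPM in control at 25 DPI, where the groups overlapped. The libraries of 52 DPI had 110.3 and 67.7 CPM in iDKO, against 112.4 and 154.8 CPM in control, and both iDKO libraries lay below both controls with TMM scaling, but not over total counts without it, where the replicate 1 pair had 126.0 CPM in iDKO and 122.6 CPM in control. With TMM scaling, 10.2% of all genes tested lay below in both. The replicate 1 pair of 52 DPI differed by little, with an iDKO to control ratio of 0.981, while that of replicate 2 was 0.437.

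The 2 proteoglycan genes are neighbours on chromosome 10 (Dcn chr10:97479609-97518143, Lum chr10:97565128-97572703, both plus strand). Dcn, for decorin, had 0.570 and 8.20 CPM in iDKO and 1.77 and 3.43 CPM in control at 25 DPI. At 52 DPI it had 0.816 and 84.4 CPM in iDKO, against 1.93 and 0.627 CPM in control. A single library, iDKO replicate 2 of 52 DPI, thus held 1291 Dcn counts, against 8 in the control of its pair, and no other library passed 8.20 CPM. In that library the ratio of Dcn to Col1a2 counts was 7.64, against 0.0544 to 0.628 in the other 7. That library also held 9.09 CPM of Col1a1 and 9.81 CPM of Col3a1, against 2.90 and 1.18 CPM in the control of its pair. Lum, for lumican, was near the limit of detection, with 0 and 37 counts in iDKO and 0 and 15 in control at 25 DPI, and 5 and 9 counts in iDKO and 10 and 0 in control at 52 DPI. The 3 libraries at 0 counts allow levels of up to 0.342 CPM in iDKO and 0.196 CPM in control at 25 DPI, and 0.235 CPM in control at 52 DPI, which covers counting error only.

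Fbn1, for fibrillin-1 (chr2:125300594-125507993, minus strand), had 0.114 and 4.03 CPM in iDKO and 0.261 and 1.33 CPM in control at 25 DPI. The later libraries had 0.188 and 1.77 CPM in iDKO and 0.0371 and 0.313 CPM in control, from 6 and 27 counts in iDKO and 1 and 4 in control. The replicate 1 libraries of both times held at most 6 counts. Pdgfra, for the fibroblast receptor (chr5:75152292-75198215, plus strand), was low throughout. It had 0.798 and 1.85 CPM in iDKO and 0.131 and 1.17 CPM in control at 25 DPI, and 0.691 and 1.64 CPM in iDKO and 0.704 and 0.627 CPM in control at 52 DPI.

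Sparc, for osteonectin (chr11:55394500-55423183, minus strand), behaved unlike the fibril genes. It had 200.2 and 96.4 CPM in iDKO and 146.4 and 113.2 CPM in control at 25 DPI. In those of 52 DPI it had 163.8 and 42.4 CPM in iDKO, against 143.5 and 144.7 CPM in control. The iDKO library was higher in both replicate 1 pairs and lower in both replicate 2 pairs, the reverse of Col3a1 and Dcn.

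**Figure D2:**
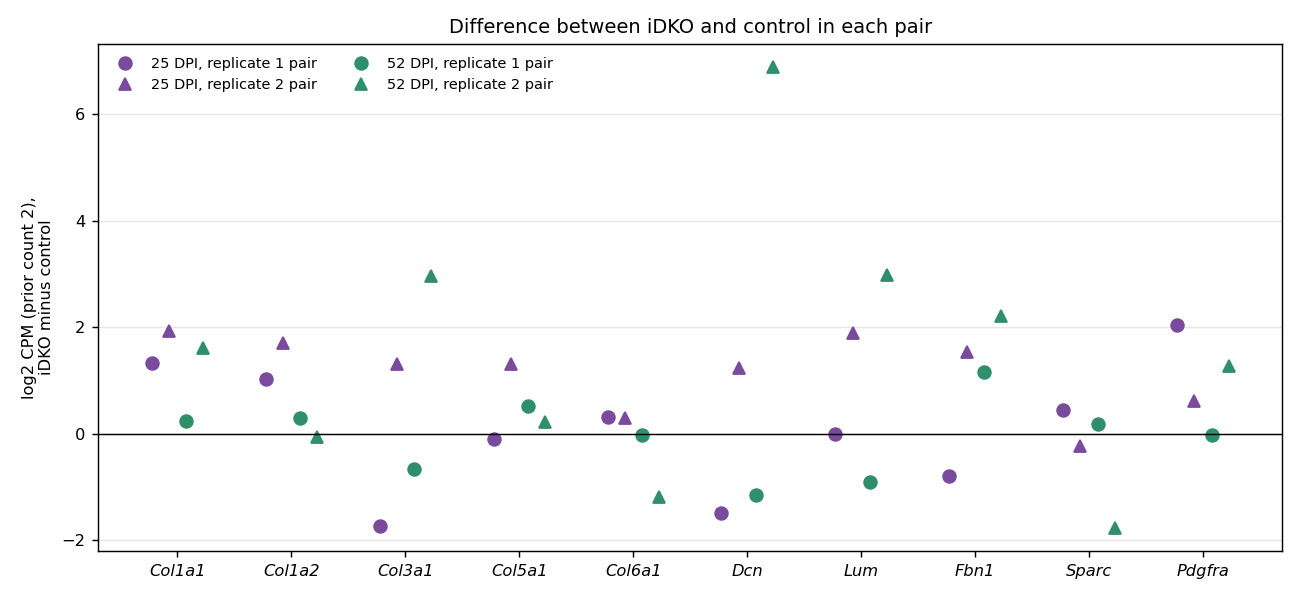
Difference in log2 CPM (prior count 2) of iDKO minus control for each gene in each pair of equal time and replicate number; purple marks 25 DPI, green 52 DPI, circles the replicate 1 pairs and triangles the replicate 2 pairs. Only Col1a1 has all 4 points above 0, and the replicate 2 pair of Dcn at 52 DPI lies at 6.89, above every other point.

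Summed over the 10 genes, the level differed by less than that of its parts. The sum was 245.8 and 337.9 CPM in iDKO and 184.2 and 226.6 CPM in control at 25 DPI, and 295.7 and 237.5 CPM in iDKO and 275.1 and 324.5 CPM in control at 52 DPI. Sparc and Col6a1 together made up 92.3% to 94.6% of it in 5 libraries and 75.0% in the replicate 2 control of 25 DPI. They made up 49.0% and 46.3% in the replicate 2 libraries labelled iDKO at 25 and 52 DPI. The other 8 genes, a subset formed after the values were seen, came to 13.2 and 172.2 CPM in iDKO and 11.7 and 56.7 CPM in control at 25 DPI, and 21.6 and 127.5 CPM in iDKO and 19.2 and 25.0 CPM in control at 52 DPI. Both replicate 2 iDKO libraries thus held more of these transcripts than any other library. The make-up of that excess differed, with collagen I and III leading at 25 DPI and decorin at 52 DPI. In RNA from whole tissue, fewer cells of a type and less RNA per cell cannot be told apart.

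**Figure D3:**
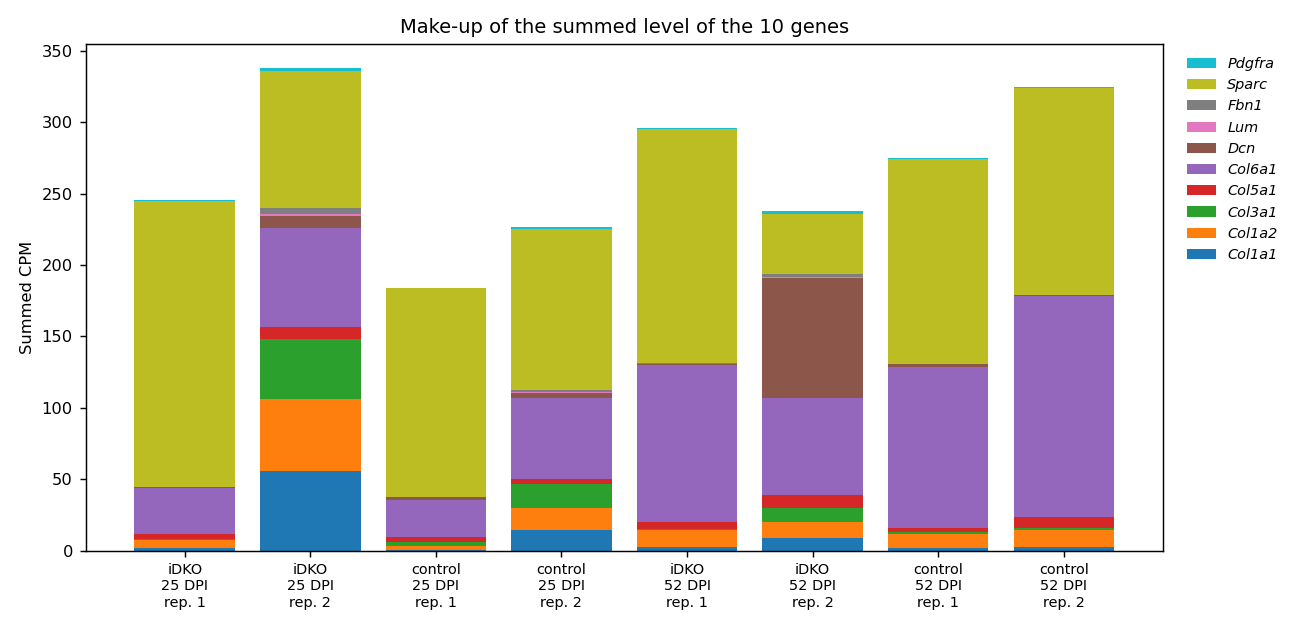
Summed CPM of the 10 genes in each library, from 0, with 1 colour per gene and iDKO left of control at each time. Sparc and Col6a1 fill most of 6 bars; collagen I and III are seen in the replicate 2 library of iDKO at 25 DPI and Dcn in that of iDKO at 52 DPI.

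The first question of the design is whether the libraries labelled iDKO differ from control at each time. With edgeR's quasi-likelihood test and Benjamini-Hochberg adjustment, 0 of 17839 genes (0%) were called at an adjusted p under 0.05 at 25 DPI and 0 at 52 DPI (0%), so none of the 10 was either. At an unadjusted p under 0.05 edgeR gave 75 genes at 25 DPI and 143 at 52 DPI, below the 0.05 share that this threshold gives when nothing differs. This fit leaves the difference between replicate numbers in its error, so its 0 calls do not show that genotype had no effect. With the replicate number as a block within each time, edgeR gave 1162 and 764 genes at an unadjusted p under 0.05, and again 0 after adjustment. Of the 17839 genes, the first count is a little above the 0.05 share and the second below it. Without the block, DESeq2 called 2 (0.0112%) and 1 (0.00561%) after adjustment and limma-voom 0 and 0. Of the 10, 4 were higher in iDKO in both pairs of 25 DPI (25.5% of all genes), and 3 were higher and 1, Col6a1, lower in both pairs of 52 DPI with TMM scaling (27.8% and 30.4% of all genes). Groups that did not overlap were seen for 0 of the 10 at 25 DPI (5.39% of all genes higher and 5.15% lower) and for Col6a1 alone at 52 DPI, where iDKO was lower with TMM scaling and the groups overlapped without it (10.2% of all genes lower and 11.9% higher). At 25 DPI the log2 fold change of iDKO over control was 1.91 (SE 1.61) for Col1a1 and 1.62 (SE 1.06) for Col1a2, with an adjusted p of 1.00 for both by edgeR. Those of the other 8 lay between 0.19 for Sparc and 2.06 for Lum. At 52 DPI the largest was 5.02 (SE 2.01) for Dcn, followed by 2.55 (SE 1.92) for Fbn1 and 2.25 (SE 1.83) for Col3a1. Col6a1 and Sparc were negative at -0.59 (SE 0.62) and -0.48 (SE 0.71), and all adjusted p at 52 DPI were 1.00. The median log2 fold change over the 10 was 1.06 at 25 DPI and 0.81 at 52 DPI, against -0.03 and -0.01 over all genes tested.

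In edgeR's fit without a block these values depended on single libraries. Leaving 1 out there also left the replicate numbers unbalanced between the groups. Without the replicate 2 library labelled iDKO at 25 DPI the log2 fold change of Col1a1 was -1.95 and that of Col1a2 -0.64, and without the replicate 2 control they were 5.35 and 3.37. Without the replicate 1 iDKO library they were 2.86 and 2.47, and without the replicate 1 control 0.99 and 0.86. At 52 DPI Dcn stood at -0.65 and Col3a1 at -0.85 without the replicate 2 library labelled iDKO. When genes with low counts were not removed, edgeR called Dcn at 52 DPI with an adjusted p of 7.44e-05, among 25 of 32427 genes (0.0771%), although its replicate 1 pair ran the other way, and across both times with an adjusted p of 0.0141, among 16 genes (0.0493%).

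Libraries of one replicate number deviated together, so a fit that compares iDKO with control inside each pair was also made. With the replicate number as a block within each time, edgeR gave Col1a1 at 25 DPI a log2 fold change of 1.76 (SE 0.44), with an adjusted p of 0.612, and Col1a2 one of 1.42 (SE 0.30), with an adjusted p of 0.601. DESeq2 with the same block called Col1a2 higher, at 1.41 (SE 0.37) with an adjusted p of 0.0311, and put Col1a1 at 1.74 (SE 0.51) with an adjusted p of 0.0634. It called 103 genes at 25 DPI (0.577%), 91 of them higher (0.51%), and 1 of the 10, and at 52 DPI 35 genes (0.196%) and 0 of the 10. Col1a2 was higher in 2 of 2 pairs. In this DESeq2 fit its call was lost when any 1 of the 8 libraries was left out. Leaving 1 out also leaves fewer libraries to estimate the spread, so the lost call does not by itself describe Col1a2. Its log2 fold change was then 1.04 to 1.70, and 1.39 to 1.40 where the library left out was of 52 DPI. With a library of 25 DPI left out, that fit compares the remaining pair of that time alone, so the sign is that of the pair. Col1a1 at 25 DPI then had a log2 fold change of 1.42 to 1.93, since both of its pairs were higher in iDKO. Across both times DESeq2 with the block put Col1a1 at 1.32 with an adjusted p of 0.0597, short of the threshold, and called 0 of the 10 among 73 genes (0.409%).

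The second question is whether the genotype effect differed between the times. The test of that difference with edgeR called 0 genes (0%), with 139 at an unadjusted p under 0.05. For Col1a2 the effect at 52 minus 25 DPI was -1.503 (SE 1.48), and for Col6a1 -0.88 (SE 0.87), each with an adjusted p of 1.00. Col6a1 was the 1 gene of the 10 that was higher in iDKO in both pairs of 25 DPI and, with TMM scaling but not without it, lower in both of 52 DPI, as 8.4% of all genes were. With the replicate number as a block within each time, edgeR put the difference of Col1a2 at -1.30 (SE 0.41), with an unadjusted p of 0.0172 and an adjusted p of 0.793. DESeq2 with the same block put it at -1.31 (SE 0.52), with an unadjusted p of 0.0119 and an adjusted p of 0.356. The larger effect of Col1a2 at 25 DPI than at 52 DPI was therefore not called by any of these tests.

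Time was compared within each genotype. In control, Col6a1 was higher at 52 DPI in both libraries, with 112.4 and 154.8 CPM at 52 DPI against 26.1 and 56.8 CPM at 25 DPI, and 11% of all genes tested did the same. Its log2 fold change was 1.69 (SE 0.63), with an unadjusted p of 0.0295 and an adjusted p of 1.00 by edgeR's quasi-likelihood test, which called 0 genes (0%) and gave 269 at an unadjusted p under 0.05. DESeq2 with the block within time called Col6a1 higher, at 1.78 (SE 0.35) with an adjusted p of 8.79e-05, and Col3a1 lower, at -2.47 (SE 0.86) with an adjusted p of 0.0349, 2 of the 10 among 1905 genes (10.7%). Of all genes, 5.1% were called higher and 5.58% lower. The block takes the spread between replicate numbers out of the error, although the times are compared between libraries that carry that spread, so it is unsuited to this comparison and its p-values are too small. Without the block DESeq2 called 14 genes and 0 of the 10, and edgeR with the block called 5 genes and 0 of the 10. Col3a1 had 1.00 and 1.18 CPM at 52 DPI in control, against 2.48 and 17.0 CPM at 25 DPI, and 9.7% of all genes had both controls of 52 DPI below both of 25 DPI. In iDKO, edgeR called 0 genes (0%) between the times, with 298 at an unadjusted p under 0.05, and DESeq2 with the block, under the same limit, 365 (2.05%), 0 of them among the 10. Col6a1 had 110.3 and 67.7 CPM at 52 DPI in iDKO, against 32.4 and 69.3 CPM at 25 DPI, and the times overlapped.

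More genes were called between the replicate numbers than between genotypes or times, but these tests are not alike. The replicate test uses all 8 libraries with group in the fit. The genotype and time tests without a block keep the replicate difference in their error. Between replicate 2 and replicate 1 libraries, edgeR called 3043 genes (17.1%) and 3 of the 10. These were Fbn1, with a log2 fold change of 3.28 (SE 0.68) and an adjusted p of 0.0261, Col1a1, at 2.89 (SE 0.78) with 0.0461, and Col3a1, at 3.24 (SE 0.89) with 0.0476, all higher in replicate 2, as were 9.84% of all genes. The remaining genes ranged from -0.83 (SE 0.37) for Sparc to 2.37 (SE 1.40) for Dcn. DESeq2 called 6150 genes (34.5%) and 5 of the 10, adding Col1a2 and Dcn. Every replicate 2 library lay above every replicate 1 library for Col1a1 and Fbn1, as for 18.5% of all genes, and 25.4% of all genes were higher in replicate 2 in all 4 groups, as Col1a1, Col3a1 and Fbn1 were. The 2 sets of libraries also differed in strand share, and whether that is one source of these differences was not tested. For Col6a1, the lowest of the 10, 99.87% of the counts in replicate 2 were on the second strand, and genes that overlap the 10 held at most 2 counts. The replicate 1 libraries carry no strand information, and the part of reads from overlapping transcripts was not tested.

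**Figure D4:**
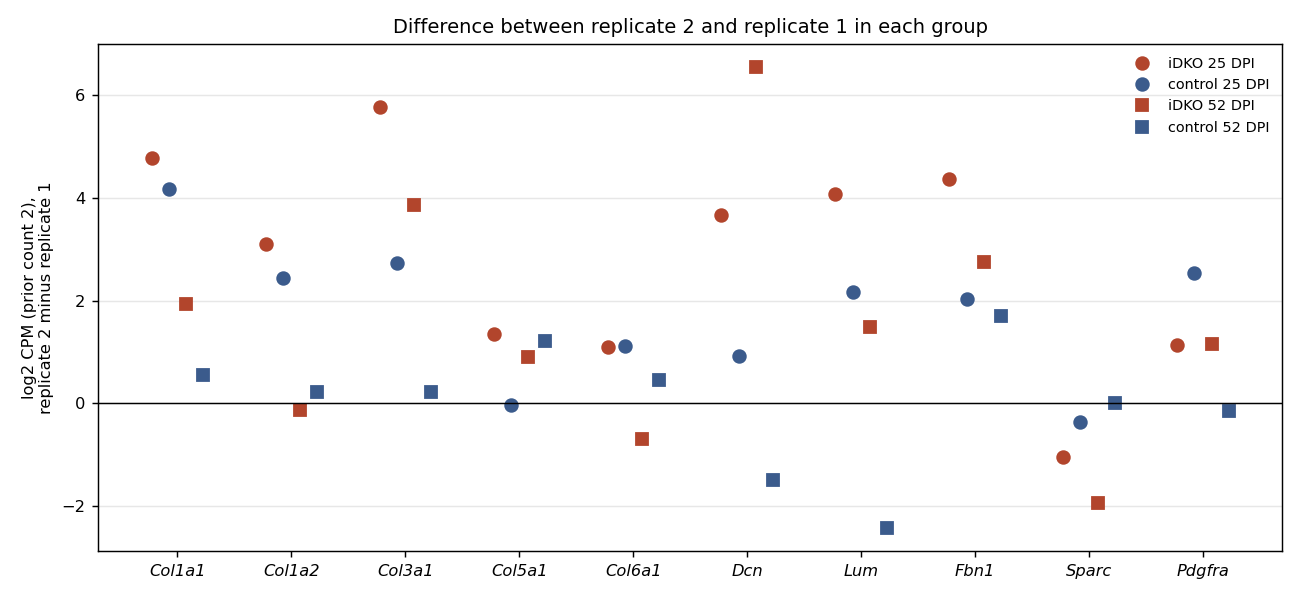
Difference in log2 CPM (prior count 2) of replicate 2 minus replicate 1 for each gene in each group; red marks iDKO, blue control, circles 25 DPI and squares 52 DPI. Col1a1, Col3a1 and Fbn1 are above 0 in all 4 groups, Sparc is below 0 in 3 groups, and in control at 52 DPI Dcn and Lum lie below 0.

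Further lists of related genes were read in the same libraries. Of 34 other genes of fibroblast matrix, 29 were tested, and by edgeR 23 were higher at 25 DPI and 16 at 52 DPI, with median log2 fold changes of 0.60 and 0.30, and 0 were called. The 3 with the highest level were Postn, for periostin, with 576 and 1043 CPM in iDKO and 341.0 and 585 CPM in control at 25 DPI, then Ltbp4, which anchors latent TGF-beta, at 56.4 to 424.9 CPM across the libraries, and Col16a1, a collagen of the dermal-epidermal junction, at 17.2 to 329.0 CPM. At 52 DPI Postn had 1743 and 304 CPM in iDKO and 1499 and 1247 CPM in control, lowest in the library where Dcn was highest. Twist2, a transcription factor of dermal fibroblasts, was at 0 counts in 7 of the 8 libraries. Prrx1, another, was at 0 counts in both replicate 1 libraries labelled iDKO and at most 1.18 CPM in any library. It was highest in the replicate 2 libraries labelled iDKO, with 1.02 CPM at 25 DPI and 1.18 CPM at 52 DPI. The controls of these pairs had 0.635 and 0.0784 CPM.

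DESeq2 with the block within time called 3 of the tested genes of this list in a genotype comparison, which are named after their values were seen. The same fit called 0.577% of all genes at 25 DPI, 0.196% at 52 DPI and 0.409% across both times. Fn1, for fibronectin, had 36.2 and 304.8 CPM in iDKO and 14.97 and 91.4 CPM in control at 25 DPI, with a log2 fold change of 1.504 (SE 0.31) and an adjusted p of 0.000645. Tnc, for tenascin-C, had 9.12 and 56.8 CPM in iDKO and 3.53 and 16.4 CPM in control at 25 DPI, with 1.59 (SE 0.45) and an adjusted p of 0.0497. Vim, for vimentin, had 160.4 and 350.0 CPM in iDKO and 53.3 and 88.7 CPM in control at 52 DPI, with 1.77 (SE 0.42) and an adjusted p of 0.0173. At the other time the same fit called none of the 3. It put Fn1 at 0.62 (adjusted p 0.909) and Tnc at 1.60 (adjusted p 0.0819) at 52 DPI, and Vim at 0.19 (adjusted p 0.933) at 25 DPI. Vim at 25 DPI had 107.6 and 170.9 CPM in iDKO and 168.7 and 83.0 CPM in control, so its pairs ran opposite ways. Across both times that fit called Fn1, at 1.06 with an adjusted p of 0.027, and Tnc, at 1.59 with 0.000247, but not Vim (adjusted p 0.667). These 3 are made by other cells as well as fibroblasts. The edgeR test called none of them.

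Of 22 genes for making collagen, the prolyl and lysyl hydroxylases, chaperones, procollagen proteases and cross-linking enzymes, 21 were tested. By edgeR 14 were higher at 25 DPI and 9 at 52 DPI, with medians of 0.14 and -0.06. DESeq2 with the block called 2 of the 21 in genotype comparisons, beside 0.577% of all genes at 25 DPI and 0.196% at 52 DPI. Fkbp14, which binds procollagen and isomerizes its prolines in the secretory pathway, had 7.76 and 7.18 CPM in iDKO and 0.261 and 0.596 CPM in control at 25 DPI. At 52 DPI it had 6.06 and 3.66 CPM in iDKO and 0.741 and 0.705 CPM in control. The groups did not overlap at either time, with iDKO higher, as for 5.39% of all genes at 25 DPI and 11.9% at 52 DPI. The log2 fold change of Fkbp14 was 4.08 (SE 0.64) at 25 DPI, with an adjusted p of 4.48e-07, and 2.72 (SE 0.63) at 52 DPI, with an adjusted p of 0.0146. P3h1, which hydroxylates collagen prolines, had 25.7 and 29.6 CPM in iDKO and 3.86 and 9.51 CPM in control at 25 DPI, and 18.0 and 13.5 CPM in iDKO and 6.78 and 6.82 CPM in control at 52 DPI. Its groups did not overlap at either time, again with iDKO higher. DESeq2 with the block gave it 2.15 (SE 0.41) and an adjusted p of 0.000114 at 25 DPI, and 1.19 and 0.401 at 52 DPI. Without the block, DESeq2 called Fkbp14 at 25 DPI with an adjusted p of 0.0014 and across both times with one of 2.5e-07, and edgeR called neither gene. Between the replicate numbers, edgeR called Pcolce, which enhances procollagen cleavage, beside 17.1% of all genes. DESeq2 called Pcolce, Plod3, Adamts14, Loxl2 and Crtap, 4 of them higher in replicate 2 and 1 lower, beside 34.5% of all genes. The 3 with the highest level, P4hb, Serpinh1 and Colgalt1, held 322.4 to 536.8, 79.8 to 137.4 and 60.8 to 138.6 CPM across the libraries.

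Of 17 matrix proteases and inhibitors, 14 were tested, of which 11 were higher at 25 DPI and 7 at 52 DPI, with medians of 0.54 and 0.03, and edgeR called 0. Mmp9, for gelatinase B, was called across both times by DESeq2 with the block.

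The markers of other skin cells were read beside these values. The 10 endothelial genes came to 3.54 and 6.35 CPM in iDKO and 4.25 and 5.18 CPM in control at 25 DPI, and 2.89 and 5.43 CPM in iDKO and 2.45 and 3.92 CPM in control at 52 DPI. Between 5 and 10 of them had a count, and Emcn, Cldn5, Cdh5, Kdr and Tie1 were each at 0 in some libraries. The 8 adipocyte genes came to 4.56 and 2.00 CPM in iDKO and 1.18 and 1.81 CPM in control at 25 DPI, and 0.251 and 5.95 CPM in iDKO and 0.148 and 0.549 CPM in control at 52 DPI. Between 1 and 6 of these had a count, and Adipoq and Plin1 were at 0 in several. In the replicate 2 library labelled iDKO at 52 DPI, Fabp4, a fatty acid carrier of adipocytes, had 5.76 CPM, against at most 0.363 CPM elsewhere.

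Erythroid genes came to 3.19 and 2.72 CPM in iDKO and 110.9 and 1.19 CPM in control at 25 DPI, and 0.628 and 18.3 CPM in iDKO and 1.37 and 0.862 CPM in control at 52 DPI. Haemoglobin transcripts were thus highest in the replicate 1 control of 25 DPI, where Col1a1 was lowest, and next in the library with the high Dcn. Mast cell proteases Cpa3, Mcpt4 and Tpsb2 were at 0 in all 8 libraries. Their list of 6 was carried by Kit, at 8.98 and 28.8 CPM in iDKO and 7.19 and 5.64 CPM in control at 52 DPI. Pericyte and smooth muscle genes came to 109.6 to 333.9 CPM in iDKO and 67.2 to 333.5 CPM in control, mainly Notch3 and Cspg4, and Schwann cell genes to 195.7 to 575.4 CPM in iDKO and 107.9 to 560.7 CPM in control, mainly Erbb3 and Mbp, which other cells express too. Dermal papilla genes came to 19.7 to 43.8 CPM in iDKO and 16.9 to 56.9 CPM in control. Skeletal muscle genes came to 17.9 and 17.2 CPM in iDKO and 29.8 and 29.2 CPM in control at 25 DPI. At 52 DPI they came to 10.6 and 17.6 CPM in iDKO and 9.34 and 12.9 CPM in control. Macrophage genes came to 11.5 and 40.5 CPM in iDKO and 18.1 and 69.2 CPM in control at 25 DPI. At 52 DPI they came to 61.4 and 59.4 CPM in iDKO and 33.1 and 31.6 CPM in control. Melanocyte genes came to 49.6 to 73.9 CPM in iDKO and 57.7 to 399.2 CPM in control. T cell genes came to 257.1 and 208.3 CPM in iDKO and 722.2 and 235.8 CPM in control at 25 DPI. At 52 DPI they came to 320.6 and 645.3 CPM in iDKO and 252.8 and 162.0 CPM in control. Melanocyte and T cell genes were both highest in the replicate 1 control of 25 DPI. The part of other cell types in the differences of the 10 genes was not tested.

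**Figure D5:**
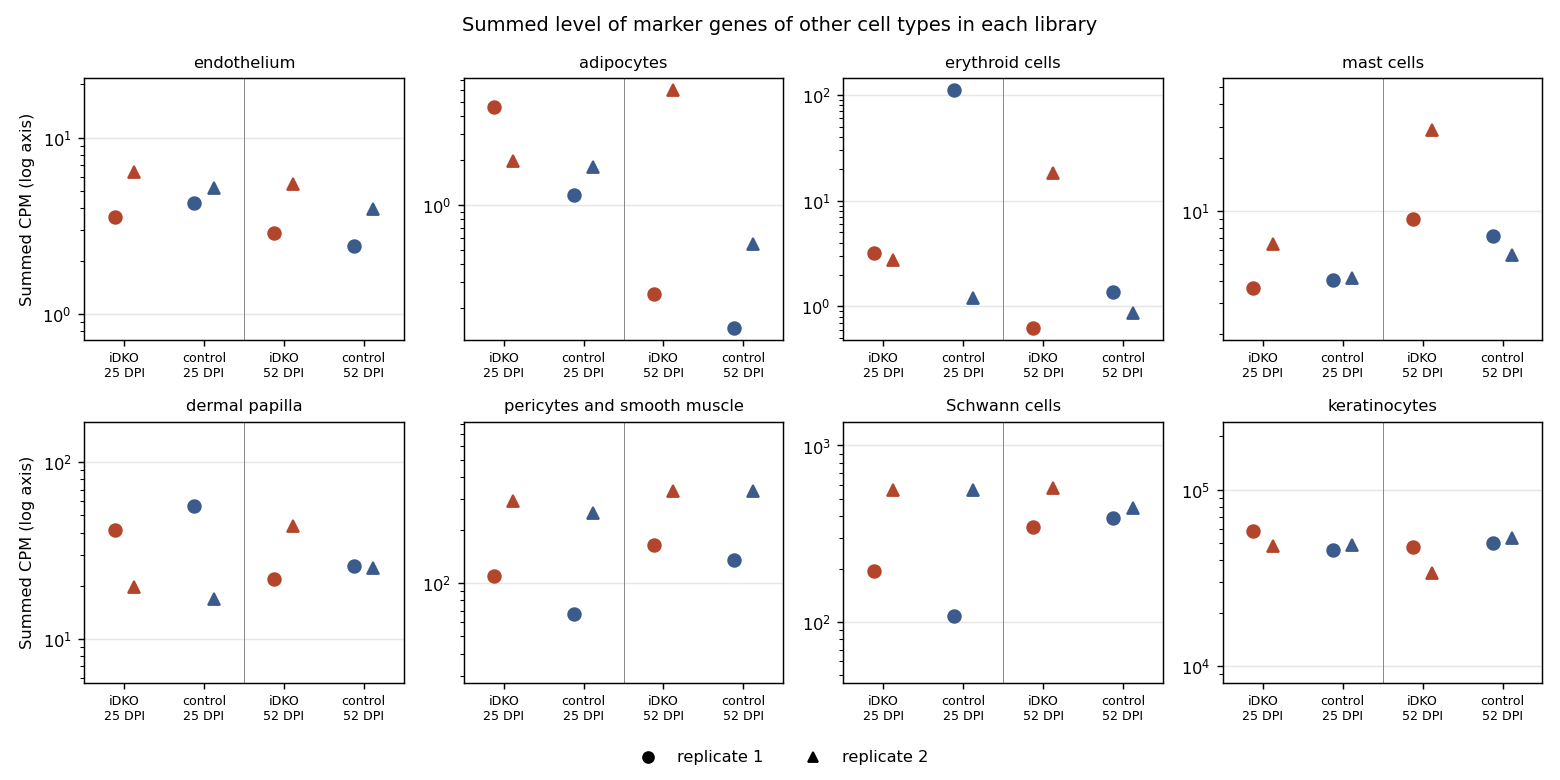
Summed CPM of marker genes of 8 cell types in each library, on a log axis of its own in each panel; red marks iDKO, blue control, circles replicate 1 and triangles replicate 2. The endothelial sum stays between 2.45 and 6.35 CPM, while the erythroid sum reaches 110.9 CPM in the replicate 1 control of 25 DPI and 18.3 CPM in the replicate 2 iDKO library of 52 DPI.

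Genes whose pattern was most like that of the 10 were found by their mean Pearson r of log2 CPM with them over the 8 libraries, which differ in depth and share replicate numbers in sets, so the values are a description with no p. The 8 highest were Irf2 and Eif2ak4 (both 0.62), Lonrf3, Cd44, Rab11fip1, Maco1, Mpp2 and Itga2b. After centring within replicate number they were Irf2 (0.52), Cdyl2 (0.51), Hdgfl2 (0.50), Sptb, Maged1, Vps53, Eif2ak4 and Clk3. None of these is a matrix gene. Within the 10, the likeness was uneven. Over the 8 libraries Col1a1 had an r of 0.91 with Col1a2 and 0.87 with Col3a1, and Col3a1 of 0.94 with Fbn1, whereas Dcn had -0.98 with Sparc and Col6a1 -0.16 with Col3a1. After centring within replicate number the values were, in the same order, 0.85, 0.69, 0.87, -0.97 and -0.59. The replicate 2 library labelled iDKO at 52 DPI held both the highest Dcn, 84.4 CPM, and the lowest Sparc, 42.4 CPM.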

How the data were processed

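RNA of trypsin-isolated epidermis was extracted with Trizol and made into libraries with a Clontech SMART-seq v4 kit, per the labels' protocols. STAR 2.5.2a, Trimmomatic 0.35, FastQC 0.11.9, DESeq2 1.24.0 and the builds GRCm38 and mm10 are named in the submitters' processing notes, with neither settings nor annotation. For every library the authors deposited a table of raw read counts by gene, in 3 columns (unstranded, first strand, second strand). The unstranded column was used. Symbols were matched for 54723 of 54838 identifiers, and coordinates are those of GENCODE on GRCm38. Groups follow the labelled genotype and time, and the library totals, 9824307 to 50711381 counts, limit the precision of genes under about 10 counts.

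The counts were tested with edgeR 4.0.16 (R 4.3.3): TMM, filterByExpr (17839 genes left), 1 mean per group over all 8 libraries, quasi-likelihood test, Benjamini-Hochberg adjustment over all tested genes, called at an adjusted p under 0.05. Genotype across both times was fitted with time as an additive term, and replicate 2 against replicate 1 with group. CPM are counts over TMM-scaled totals. Alternatives were DESeq2 1.42.0, limma-voom 3.58.1, DESeq2 size factors, no or a stricter filter, the second-strand column for replicate 2, replicate blocks and leaving out each library. The programs were tested on simulated data. An adjusted p that DESeq2 gives as NA stayed NA.

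The deviations of equally numbered libraries from their group means correlated at 0.395 to 0.793 between each of 6 pairings of groups. Replicate numbers were therefore treated as pairing the libraries, and the blocked value stands beside each result of the 10 genes whose call it changes. Named were the 10 genes, the 3 most abundant of each other list, collagen synthesis genes called by any tool, and the 8 genes most alike by each measure. Other genes named, such as Fn1, Tnc, Vim, Mmp9, Twist2, Prrx1 and the single cell type markers, fall outside that rule and were chosen after their values were seen. The genes and lists were chosen with earlier results of these data known.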

Additional observations from a re-analysis of the deposited data

Results flagged for a closer look

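With TMM scaling, Col6a1 was higher in iDKO in both pairs of 25 DPI and lower in both of 52 DPI. In the pairs of 25 DPI it had 32.4 and 69.3 CPM in iDKO and 26.1 and 56.8 CPM in control, and in those of 52 DPI 110.3 and 67.7 CPM in iDKO and 112.4 and 154.8 CPM in control. The ratio in the replicate 1 pair of 52 DPI was 0.981, and over total counts without TMM that pair had 126.0 CPM in iDKO and 122.6 CPM in control, so the sign turned. The effect at 52 minus 25 DPI was -0.88 on the log2 scale (SE 0.87, adjusted p 1.00 by edgeR's quasi-likelihood test), so the sign pattern picked it out and the test did not. Of all genes tested, 8.4% had this pattern.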

How the results depend on the processing

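Few counts and 2 replicates limit these results, and the causes of the changes below were not tested. Genes called at 25 DPI numbered 0 by edgeR, 2 by DESeq2, 8 without a filter on low counts and 103 with the replicate block within time in DESeq2, which called 1 of the 10, Col1a2. The Col1a2 call of that last fit, an alternative chosen after seeing the data, was lost with any 1 library left out. Each such fit also has fewer libraries to estimate the spread. At 52 DPI they were 0, 1, 25 and 35, with 1 of the 10, Dcn, called without the filter. For the difference between the times, no filter gave 19 genes and DESeq2 with the block 39. Between 52 and 25 DPI the counts by DESeq2, no filter, edgeR with the replicate block within time and DESeq2 with it were 11, 37, 5 and 365 in iDKO and 14, 62, 5 and 1905 in control, the last with 2 of the 10. Across both times they were 8, 16, 1 and 73, with 1 of the 10, Dcn, without the filter. DESeq2 called 6150 genes and 5 of the 10 between the replicate numbers, and a stricter filter left 1 of the 10. In replicate 1 libraries alone the median log2 fold change of the 10 was 0.15 at 25 DPI, 0.20 across both times and 0.46 for 52 against 25 DPI in iDKO, and in replicate 2 libraries alone the difference between the times was 0.17. With the block, DESeq2 put Col3a1 at -0.11 and Dcn at -0.16 at 25 DPI, and edgeR put Lum at -0.091 at 52 DPI. The replicate block changed no call beyond those given here and in the text.

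Each library was left out in turn of edgeR's fit without a block, which also left the replicate numbers unbalanced between the groups. The median over the 10 then ranged from -1.30 to 3.09 at 25 DPI, from -1.29 to 1.99 for the difference between times, from -1.67 to 1.49 for 52 against 25 DPI in iDKO and from 0.19 to 1.76 across both times. At 25 DPI Col1a1 ranged from -1.95 to 5.35, Col1a2 from -0.64 to 3.37, Col3a1 from -3.80 to 3.15, Col5a1 from -0.070 to 1.36, Col6a1 from -0.34 to 1.00, Dcn from -2.18 to 1.68, Lum from -4.97 to 6.84, Sparc from -0.36 to 0.63 and Fbn1 from -2.76 to 3.03. At 52 DPI Col1a1 ranged from -0.051 to 1.90, Col3a1 from -0.85 to 3.17, Col5a1 from -0.19 to 1.07, Dcn from -0.65 to 6.07, Lum from -0.33 to 6.10 and Sparc from -1.77 to 0.19. Across both times Col1a2 ranged from -0.16 to 1.17, Col6a1 from -0.48 to 0.076, Lum from -0.0055 to 2.62 and Sparc from -0.51 to 0.19. Between the replicate numbers 128 to 3276 genes and 0 to 4 of the 10 were called.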

Other observations

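The keratinocytes' own basement membrane genes, which lie on the epithelial side of the junction, were read beside the 10. All 10 of them were tested, with 5 higher and 5 lower in iDKO at 25 DPI and 0 higher and 10 lower at 52 DPI by edgeR, with medians of 0.01 and -0.84, and 0 were called. Col17a1, a collagen of the hemidesmosome, had 1701 and 6276 CPM in iDKO and 519 and 7108 CPM in control at 25 DPI, and 3463 and 2244 CPM in iDKO and 4299 and 6611 CPM in control at 52 DPI. With the replicate block within time, edgeR and DESeq2 each put 10 of 10 higher at 25 DPI, with medians of 0.62 and 0.61, so the direction at 25 DPI depended on the fit.

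Between 52 and 25 DPI in control, DESeq2 with the block, which is unsuited to a comparison of times, called 3 of 21 collagen synthesis genes, Adamts14, Bmp1 and Loxl4, beside 10 of 29 other fibroblast matrix genes, 5 of 14 matrix proteases and 10.7% of all genes. Without the block the 3 had an unadjusted p of 0.717, 0.494 and 0.519 by DESeq2. Adamts14, a procollagen protease, had 77.7 and 124.2 CPM at 52 DPI and 4.12 and 141.2 CPM at 25 DPI in control, so the times overlapped.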
